A study of Mus musculus with 12 samples.

Results

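The genes described here are 10 genes of MHC class I presentation and the immunoproteasome, taken by symbol from the 37775 genes of the expression table: H2-K1, H2-D1, B2m, Tap1, Tap2, Tapbp, Psmb8, Psmb9, Psmb10 and Nlrc5. mRNA was measured in monocyte-macrophage lineage cells (Mo-Macs) sorted from the ear skin of male WT BALB/c mice on day 5 of IgE-mediated chronic allergic inflammation (IgE-CAI), in which 300 μg of anti-TNP IgE was given intravenously and 10 μg of TNP-conjugated ovalbumin was injected into the right ear 1 day later. All 4 fractions came from treated WT skin, and no untreated fraction was analysed here. The fractions were Ly6Chi PD-L2lo classical monocytes, Ly6Chi PD-L2hi early CMDMs (monocyte-derived macrophages), Ly6Clo PD-L2hi late CMDMs and Ly6Clo PD-L2lo resident-like macrophages, with 3 libraries each and 5000 to 80000 sorted cells per library. The labels do not say whether the libraries of a fraction came from separate animals, so the p-values measure only the spread between these libraries.

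MHC class I molecules show peptides from the cell's own proteins to CD8 T cells and are recognised by NK cells. The peptides are cut by the proteasome, carried into the endoplasmic reticulum by the TAP transporter and loaded by a complex built around tapasin onto a heavy chain paired with beta-2 microglobulin. Interferon-gamma replaces the catalytic subunits of the constitutive proteasome with those of the immunoproteasome, and NLRC5 is a transactivator of class I genes that acts with RFX, NF-Y and CREB proteins at their promoters.

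In GRCm38 (GENCODE M21 annotation), 7 of the 10 genes lie on chromosome 17, in the mouse MHC. These are Tapbp (33915899 to 33929292), H2-K1 (33996017 to 34000347), Psmb9 (34181987 to 34187764), Tap1 (34187553 to 34197225), Psmb8 (34197721 to 34201454), Tap2 (34203527 to 34216321) and H2-D1 (35262730 to 35267499). B2m is on chromosome 2 (122147686 to 122153083), and Nlrc5 (94434356 to 94527272) and Psmb10 (105935735 to 105938444) are on chromosome 8. Psmb9 and Tap1 are read in opposite directions from RefSeq starts 225 bases apart, and their gene models overlap over 212 bases. For mapping, the study lists the Bowtie2 option nofw, under which reads are not aligned in the forward direction. How reads of that overlap were divided between Psmb9 and Tap1 was not tested.

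The promoters of the heavy chains and of B2m are shown because these are the proteins whose pairing makes the class I molecule. RefSeq promoter windows of GRCm38 were matched for 8 of the 10 genes. The bases before the RefSeq start of H2-K1 (chr17:34000348-34000597, minus strand) and of B2m (chr2:122147437-122147685, plus strand) follow, 5′ to 3′, with matches to an interferon-response core, an NF-κB site and a Y box in capitals.
H2-K1: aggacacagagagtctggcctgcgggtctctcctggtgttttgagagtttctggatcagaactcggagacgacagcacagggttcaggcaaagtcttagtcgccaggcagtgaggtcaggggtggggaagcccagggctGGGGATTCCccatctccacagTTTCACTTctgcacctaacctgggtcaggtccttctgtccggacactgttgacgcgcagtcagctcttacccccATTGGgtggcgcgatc
B2m: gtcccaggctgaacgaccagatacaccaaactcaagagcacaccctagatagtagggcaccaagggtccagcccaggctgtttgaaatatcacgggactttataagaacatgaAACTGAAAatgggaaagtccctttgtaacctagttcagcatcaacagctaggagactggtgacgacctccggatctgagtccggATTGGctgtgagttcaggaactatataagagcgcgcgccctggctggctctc
The searched letters were AANNGAAA for the interferon-response core, GGGNNTTCC for the NF-κB site and CCAAT for the Y box, on both strands, and they were chosen with these sequences in view. The window of H2-D1 lies in the first exon of a longer gene model, so only the 29 bases from the NF-κB match to the interferon-response match are set beside those of H2-K1 (H2-K1 at chr17:34000430-34000458, minus strand, and H2-D1 at chr17:35262923-35262951, plus strand).
H2-K1: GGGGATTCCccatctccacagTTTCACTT
H2-D1: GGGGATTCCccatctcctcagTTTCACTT
These differ by 1 substitution, A18T from H2-K1 to H2-D1, counted from 1 at the 5′ end. Over the 250 bases before the start, the interferon-response core was held by 3 of the 8 promoters (H2-K1, H2-D1 and B2m) against 21.3% of all 32851 promoters in the table. The NF-κB letters were held by 2 of the 8 (H2-K1 and H2-D1) against 4.98%, and the Y box by 6 of the 8 against 33.8%. The B2m window has no match to the NF-κB letters, so none is in capitals there. The letters of a gamma-activated site, TTCNNNGAA, were held by 1 of the 8 (Psmb8) against 7.02%. TGACG, the core of a CREB site, was held by 5 of the 8 against 17.8%. The Y box and TGACG matches of Psmb9 and Tap1 are the same bases, since the windows of these neighbours overlap. The windows of H2-K1 and H2-D1 are 89.47% identical over 190 aligned bases. These counts are therefore not of independent promoters. No 2 of the capital stretches overlap. A match describes the letters of this reference only, which comes from C57BL/6J and not from BALB/c.

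Total counts ranged from 12537178 to 19844113 per library, so that 3 counts corresponded to 0.151 to 0.239 CPM (counts scaled to the size of the library), a limit that covers counting error only. All 10 genes passed the expression filter that left 22118 genes for testing in edgeR, and they took 0.396 to 0.684% of the counts of a library. TMM scaling rests on a majority of genes being stable across fractions. The summed level of 10 general leukocyte genes (Ptprc, Coro1a, Laptm5 and others) was not constant on that scale: it was lowest in early CMDMs (1091 to 1750 CPM), higher in late CMDMs (2409 to 2772 CPM) and highest in resident-like macrophages (4027 to 4166 CPM) and classical monocytes (4335 to 4627 CPM). The summed level of 6 of 6 detected keratinocyte markers moved the other way, from 17100 to 27280 CPM in early CMDMs against 1871 to 4050 CPM in the other fractions, and its part in the results below was not tested. The 6 fibroblast markers, all detected, summed to 2988 to 5588 CPM in classical monocytes and early CMDMs and to 276 to 499 CPM in the other fractions. The 6 T and NK cell markers, also all detected, summed to 184 to 243 CPM in classical monocytes and to 21.0 to 51.8 CPM elsewhere. The sort gate had selected CD45-positive CD11b-positive cells. The 6 monocyte and macrophage markers were all present and summed to 2207 to 3143 CPM in early CMDMs and 5569 to 9608 CPM in the other fractions. Lyz2 made up most of that sum (means of 1764 CPM in early CMDMs and 4030 to 7310 CPM elsewhere). On TMM scaling 3 of the 6 were called lower and 0 higher in early CMDMs than in classical monocytes. Csf1r (391 and 395 CPM) and Adgre1 (86.8 and 84.7 CPM) had near equal means there. The 6 dendritic cell markers, all detected, summed to 1324 to 1526 CPM in resident-like macrophages and to 128 to 341 CPM in the other fractions. Cd207 and Cd209a (means of 819 and 555 CPM) made up most of the resident-like sum, whereas Flt3 and Ccr7 had their highest means in classical monocytes. Neutrophil markers summed to 8.29 to 35.8 CPM. Basophil and mast cell markers summed to 45.8 to 83.5 CPM in resident-like macrophages and 4.99 to 36.3 CPM in the other fractions. Endothelial markers summed to 171 to 228 CPM in late CMDMs and 57.0 to 156 CPM in the other fractions. Pecam1 and Lyve1 (means of 105 and 57.6 CPM) made up most of the late CMDM sum, whereas Cdh5, Tek and Kdr had their highest means elsewhere. The part of these markers in the results below was not tested. Results are therefore given on TMM scaling and, beside it, with each library scaled by the 10 leukocyte genes.

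**Figure D1:**
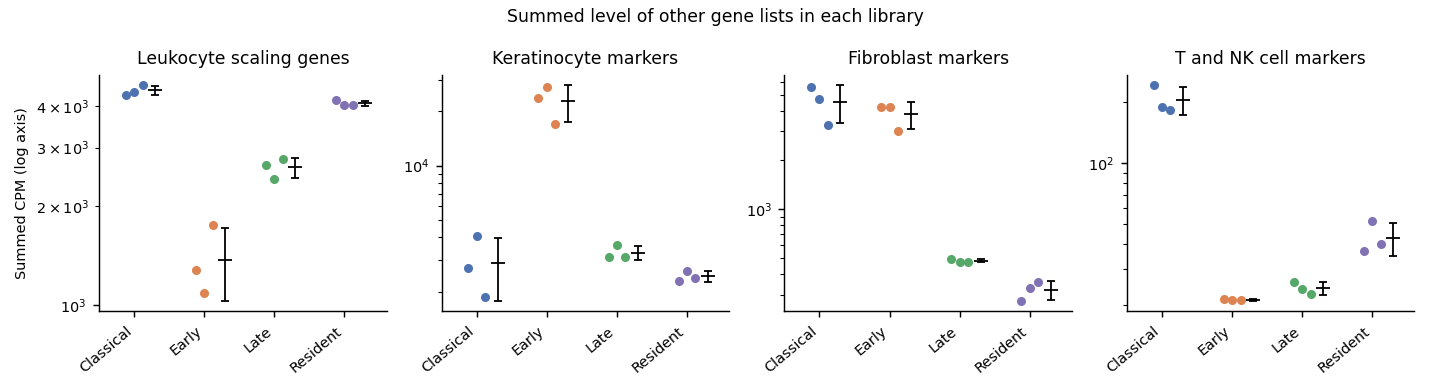
Summed TMM-normalized CPM of the leukocyte scaling genes and of keratinocyte, fibroblast and T and NK cell markers (log axes), by fraction. Points are the 3 libraries of a fraction and bars are mean ± SD; early CMDM libraries are lowest for leukocyte genes (1091 to 1750 CPM) and highest for keratinocyte markers (17100 to 27280 CPM).

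Levels of different genes were compared per kilobase of merged exons. Among the 10 genes, B2m had the highest level, with 2166 ± 263 CPM per kb (mean ± SD, n = 3) in early CMDMs, where it was lowest, and 3913 ± 231 CPM per kb in late CMDMs, where it was highest. H2-D1 followed with 400 to 680 CPM per kb and H2-K1 with 310 to 474 CPM per kb, as fraction means. The immunoproteasome subunits Psmb8 and Psmb10 and tapasin (Tapbp) lay between 21.96 and 60.3 CPM per kb. Psmb9, Tap1 and Tap2 lay between 6.40 and 16.8 CPM per kb. Nlrc5 had the lowest level, 2.45 to 3.23 CPM per kb. The heavy chains are members of a family of similar genes: 16.8% of the 31-base words of the longest coding H2-K1 transcript occur in that of H2-D1, and 12.9% in the reverse direction. BALB/c carries another MHC haplotype than the reference strain, so the split of reads between heavy chain genes is uncertain, and whether it differs between fractions was not tested.

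The 3 catalytic subunits of the immunoproteasome had the same order of fractions on TMM scaling. Psmb8, the chymotrypsin-like subunit, had 155, 164 and 172 CPM in the classical monocyte, 142, 145 and 150 CPM in the resident-like, 99.6, 101.3 and 102 CPM in the late CMDM and 67.6, 74.8 and 80.4 CPM in the early CMDM libraries. Psmb9, the beta-1 subunit, had 57.7, 58.5 and 68.3 CPM, 54.2, 56.3 and 57.5 CPM, 41.7, 43.3 and 47.6 CPM and 30.5, 31.9 and 32.5 CPM in the same order of fractions. On TMM scaling no ranges of Psmb8 or Psmb9 overlapped between fractions, and both were ordered classical, resident-like, late and early from highest to lowest. On leukocyte-gene scaling early CMDMs were highest for both, with log2 fold changes against classical monocytes of 0.60 and 0.79. Psmb10, the beta-2 subunit, had 92.4, 108 and 108 CPM in classical monocytes, 73.9, 78.9 and 83.0 CPM in the resident-like, 61.1, 73.6 and 75.4 CPM in the late CMDM and 41.2, 43.7 and 51.6 CPM in the early CMDM libraries. Only the late CMDM and resident-like ranges of Psmb10 overlapped. Between neighbours in this order, the step from classical to resident-like was called for Psmb10 and not for Psmb8 or Psmb9, the step from resident-like to late was called for Psmb8 and Psmb9 and not for Psmb10, and the step from late to early was called for all 3.

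On TMM scaling the classical heavy chains H2-K1 and H2-D1 were lowest in early CMDMs. H2-K1 was at 873, 910 and 946 CPM in early CMDMs, and at 1188 to 1440 CPM in the 9 libraries of the other fractions (means 1289 ± 104, 1252 ± 76.0 and 1394 ± 42.9 CPM in classical, late and resident-like cells). H2-D1 was at 967, 1026 and 1104 CPM in early CMDMs and at 1441 to 1843 CPM in the other 9 libraries (means 1519 ± 97.6, 1500 ± 59.0 and 1755 ± 76.5 CPM). On this scale the early CMDM libraries were below every other library for both genes, and edgeR called no difference among the other 3 fractions, although DESeq2 called H2-D1 higher in resident-like macrophages than in late CMDMs (adjusted p = 0.0369). On leukocyte-gene scaling both genes were called highest in early CMDMs, and late CMDMs were called above classical monocytes and resident-like macrophages. B2m, the light chain, had another order. Late CMDMs had 3138, 3450 and 3508 CPM, resident-like macrophages 2242, 2595 and 2757 CPM, classical monocytes 2059, 2584 and 2672 CPM and early CMDMs 1661, 1821 and 2107 CPM. For B2m on TMM scaling, every late CMDM library was above all others, and classical monocytes and resident-like macrophages did not differ beyond their spread. On leukocyte-gene scaling the log2 fold change of B2m in late against early CMDMs was -0.10, which was not called.

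On TMM scaling the transporter genes and tapasin had their highest means in classical monocytes, where Tap1 and Tap2 also spread most. Tap1 was at 47.2, 62.4 and 77.0 CPM in classical monocytes, at 46.2, 46.5 and 47.6 CPM in resident-like macrophages, at 42.3, 45.3 and 48.9 CPM in the early and at 31.9, 32.8 and 40.5 CPM in the late CMDM libraries. On this scale Tap1 was the only one of the 10 genes with its lowest mean in late CMDMs. Tap2, its partner in the TAP dimer, was at 35.5, 45.2 and 53.3 CPM in classical monocytes and at 39.1, 39.4 and 41.6 CPM in resident-like macrophages, against 27.9 to 32.5 CPM in early and 28.3 to 34.6 CPM in late CMDMs, which overlapped. Tapbp, which encodes tapasin, was at 176, 200 and 209 CPM in classical monocytes, above the 9 other libraries (115 to 159 CPM). On leukocyte-gene scaling early CMDMs were called above classical monocytes for Tap1, Tap2 and Tapbp (log2 1.32, 1.22 and 1.10). Tap1 was then at log2 -0.23 in resident-like macrophages against late CMDMs, which was not called.

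Nlrc5 was at 24.6, 28.3 and 29.4 CPM in classical monocytes. Its libraries spanned 19.6, 21.2 and 21.8 CPM for early CMDMs, 20.7, 22.4 and 23.3 CPM for late CMDMs and 20.1, 22.4 and 23.6 CPM for resident-like macrophages. On TMM scaling the classical monocyte libraries were above all others, and the other 3 fractions overlapped. The highest and lowest fraction means of Nlrc5 differed 1.32-fold on that scale, against 2.26-fold for Psmb10, 2.20-fold for Psmb8 and 1.81-fold for B2m. On leukocyte-gene scaling Nlrc5 was called higher in early CMDMs than in classical monocytes (log2 1.37).

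**Figure D2:**
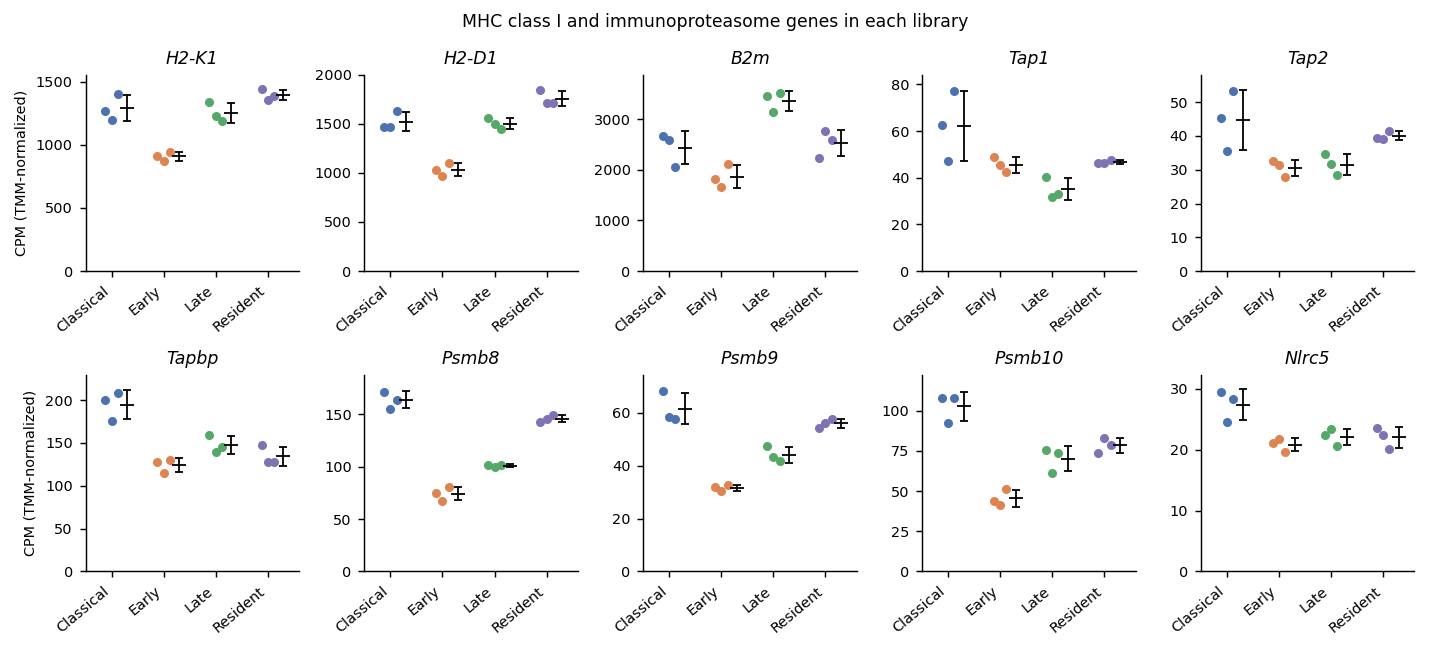
TMM-normalized CPM of the 10 genes in each library, with 1 panel per gene and axes from 0; points are the 3 libraries of a fraction and bars are mean ± SD. Psmb8, Psmb9 and Psmb10 are lowest in early CMDMs (means 74.3, 31.7 and 45.5 CPM), B2m is highest in late CMDMs (3365 CPM) and Tap1 is lowest there (35.1 CPM); scaling by leukocyte genes places early CMDMs above classical monocytes for all 10 genes.

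The comparison of early CMDMs with classical monocytes asked how the Ly6Chi cells differ by PD-L2. On TMM scaling all 10 genes were called lower in early CMDMs (edgeR quasi-likelihood test, Benjamini-Hochberg adjustment) and on leukocyte-gene scaling all 10 were called higher, at log2 0.55 to 1.37. On TMM scaling 20.6% of all tested genes were called lower and 24.2% higher, and on leukocyte-gene scaling 90.9% were called higher and 2.08% lower, with a shift of the median gene by 1.74. Relative to the median gene, all 10 were below it on TMM scaling. A change of scaling moves all genes nearly alike, so the same position on leukocyte-gene scaling is no separate support. The 3 immunoproteasome subunits had the largest TMM differences: the log2 fold change was -1.14 ± 0.09 (SE) for Psmb8 (adjusted p = 4.87e-08), -0.96 ± 0.10 for Psmb9 (adjusted p = 5.51e-07) and -1.18 ± 0.11 for Psmb10 (adjusted p = 3.89e-07). The other 7 ranged from -0.65 ± 0.10 for Tapbp to -0.39 ± 0.13 for B2m (adjusted p = 0.0221), and the ranges of B2m and Tap1 overlapped between the fractions. The median over the 10 genes was -0.55, against -0.01 over all tested genes. The call for B2m was lost without classical monocyte replicate 1 or 2 or early CMDM replicate 1 or 2 (adjusted p = 0.0735 to 0.108) and with DEGES or the 6 libraries alone (adjusted p = 0.0695 and 0.0576), and that for Tap1 without classical monocyte replicate 3 or early CMDM replicate 2 or 3 (adjusted p = 0.054 to 0.113).

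From early to late CMDMs, which differ in Ly6C, 6 of the 10 genes were called higher and 0 lower on TMM scaling. On that scale 14.4% of tested genes were called higher and 17.5% lower. On leukocyte-gene scaling 0 of the 10 were called higher and 8 lower. The median gene was then shifted by -0.97, with 0.692% of tested genes called higher and 72.8% lower. The 8 of 10 called lower are thus near the share of all tested genes. The 6 called higher on TMM scaling were H2-K1, H2-D1, B2m and the 3 immunoproteasome subunits. B2m had the largest difference, a log2 fold change of 0.85 ± 0.13 (adjusted p = 9.78e-05), followed by Psmb10 with 0.62 ± 0.11 (adjusted p = 0.000494) and H2-D1 with 0.54 ± 0.10 (adjusted p = 0.000514). Tap1 went against them, with a log2 fold change of -0.38 ± 0.15 that missed the threshold (adjusted p = 0.0603) although its ranges did not overlap. On TMM scaling Tap1 lay below and the other 9 genes above the median gene. Leukocyte-gene scaling moved all genes nearly alike and so kept these positions. Upper quartile scaling turned the balance of all tested genes to 19.2% higher and 14.5% lower. For Tap1 the difference was called lower without classical monocyte replicate 2 or 3 or late CMDM replicate 1 (adjusted p = 0.0185 to 0.0363).

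Between late CMDMs and classical monocytes, 7 of the 10 genes were called lower and 1 higher on TMM scaling, where 17.5% of tested genes were called lower and 18.1% higher; on leukocyte-gene scaling 0 were called lower and 5 higher, with the median gene shifted by 0.78 and 62.1% of tested genes called higher against 5.10% lower. B2m was the gene called higher, with a log2 fold change of 0.47 ± 0.13 on TMM scaling (adjusted p = 0.01) and 1.23 on leukocyte-gene scaling. Tap1 had the largest decrease on TMM scaling, -0.83 ± 0.15 (adjusted p = 0.000316), and its value on leukocyte-gene scaling was -0.05. Psmb8 (-0.70 ± 0.09), Psmb10 (-0.56 ± 0.11), Tap2 (-0.50 ± 0.13), Psmb9 (-0.48 ± 0.09), Tapbp (-0.40 ± 0.10) and Nlrc5 (-0.31 ± 0.11, adjusted p = 0.0373) were the others called lower on TMM scaling. The heavy chains H2-K1 (-0.04 ± 0.10) and H2-D1 (-0.02 ± 0.10) were not called on TMM scaling. On leukocyte-gene scaling they were among the 5 called higher, at 0.74 (adjusted p = 0.000624) and 0.76 (adjusted p = 0.000394), with B2m, Tapbp and Nlrc5. The call for Nlrc5 was lost in 7 of 12 fits that left out 1 library (classical monocyte replicates 1 and 3, early CMDM replicates 1 and 2, and each late CMDM replicate, adjusted p = 0.0504 to 0.145). It was also lost with upper quartile scaling, DEGES, no filter and the 6 libraries alone (adjusted p = 0.0508 to 0.0989).

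Resident-like macrophages were compared with late CMDMs, the fraction that differs from them in PD-L2. On TMM scaling 3 of the 10 genes were called higher (Psmb8, Tap1 and Psmb9) and B2m was called lower, where 12.7% of tested genes were called higher and 15.4% lower; on leukocyte-gene scaling 0 were called higher and 6 lower, with the median gene shifted by -0.65, 2.70% of tested genes called higher and 53.8% lower. The log2 fold change was 0.53 ± 0.09 for Psmb8 (adjusted p = 0.000307), 0.42 ± 0.15 for Tap1 (adjusted p = 0.0431), 0.34 ± 0.09 for Psmb9 (adjusted p = 0.0125) and -0.41 ± 0.13 for B2m (adjusted p = 0.0256). Dendritic cell markers moved with this comparison, from 177 to 255 CPM in late CMDMs to 1324 to 1526 CPM in resident-like macrophages (4 of 6 called higher and 0 lower on TMM scaling), and their part in these differences and in the other comparisons of resident-like macrophages was not tested. With library size only, the balance of all tested genes was 8.40% higher and 21.6% lower. The Tap1 call was lost in 8 of 12 fits without 1 library (classical monocyte replicate 1, early CMDM replicates 1 and 2, late CMDM replicates 2 and 3, and each resident-like replicate), that for B2m in 4 (late CMDM or resident-like replicate 1 or 3), and that for Psmb9 in 1 (late CMDM replicate 3, adjusted p = 0.0632).

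Resident-like macrophages and classical monocytes, both PD-L2lo, were nearest in the summed leukocyte genes. On TMM scaling 0 of the 10 genes were called higher and 4 lower, where 10.8% of tested genes were called higher and 12.9% lower. On leukocyte-gene scaling none was called in either direction. The median gene was then shifted by 0.13, with 9.38% of tested genes called higher and 7.55% lower. Tapbp had a log2 fold change of -0.54 ± 0.10 (adjusted p = 0.000807), Tap1 of -0.41 ± 0.14 (adjusted p = 0.0482), Psmb10 of -0.39 ± 0.11 (adjusted p = 0.0171) and Nlrc5 of -0.32 ± 0.11 (adjusted p = 0.0447). All 4 kept this sign on leukocyte-gene scaling without being called. Tapbp was then at -0.41 (edgeR, adjusted p = 0.0891), Tap1 at -0.28, Psmb10 at -0.26 and Nlrc5 at -0.19. With library size only, 6.51% of tested genes were called higher and 20.5% lower, and the median gene was shifted by -0.17. The calls for Tap1 and Nlrc5 were each lost in 10 of 12 fits without 1 library, and that for Psmb10 without classical monocyte or resident-like replicate 1 (adjusted p = 0.0652 to 0.0782). Tap1 was still called without classical monocyte replicate 2 or late CMDM replicate 1, and Nlrc5 without classical monocyte replicate 2 or resident-like replicate 1.

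Resident-like macrophages and early CMDMs differ in both sorting markers. On TMM scaling 7 of the 10 genes were called higher in resident-like macrophages and 0 lower, where 21.4% of tested genes were called higher and 25.1% lower; on leukocyte-gene scaling 0 were called higher and all 10 lower, with the median gene shifted by -1.61, 1.36% of tested genes called higher and 89.8% lower. Psmb8 had the largest log2 fold change, 0.97 ± 0.09 (adjusted p = 2.06e-07), followed by Psmb9 (0.82 ± 0.10), Psmb10 (0.79 ± 0.11), H2-D1 (0.77 ± 0.10) and H2-K1 (0.62 ± 0.10). B2m (0.44 ± 0.13) and Tap2 (0.39 ± 0.13) were also called, and Tap1, Tapbp and Nlrc5 were at 0.04 ± 0.14, 0.11 ± 0.10 and 0.08 ± 0.11. Upper quartile scaling gave 27.8% of tested genes higher and 21.1% lower with a median shift of 0.12, and library size only gave 14.7% and 32.0% with a shift of -0.16. The B2m call was lost without early CMDM or resident-like replicate 2 and the Tap2 call without early CMDM or resident-like replicate 3 (adjusted p = 0.0503 to 0.0845). With library size only both calls were lost (adjusted p = 0.0865 and 0.171), and with DEGES that for Tap2 (adjusted p = 0.0817).

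**Figure D3:**
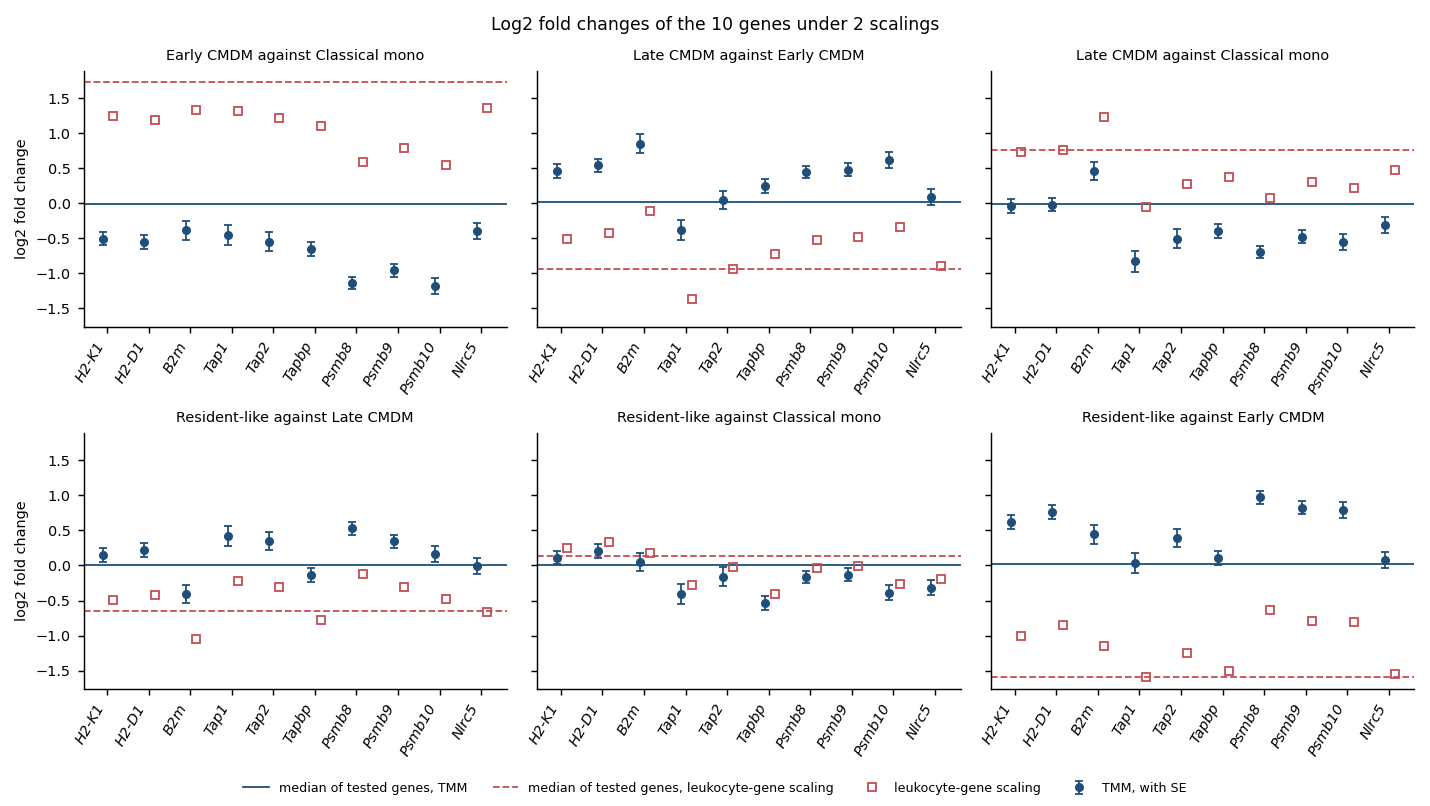
Log2 fold changes of the 10 genes in the 6 comparisons: filled points with SE bars are on TMM scaling, open squares on leukocyte-gene scaling, and horizontal lines are the median of all tested genes under each scaling. Between early CMDMs and classical monocytes all 10 genes lie below 0 on TMM scaling and above 0 on leukocyte-gene scaling. They are below the median line in both cases, as a change of scaling moves all genes nearly alike.

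The 6 comparisons share libraries, so their results are not independent. In bulk RNA, fewer cells of a type and less RNA per cell cannot be told apart.

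Ratios of counts within a library do not depend on the scaling. For each of 8 ratios, the 4 fractions were compared by an exact permutation test of the F statistic over the 15400 divisions of 12 libraries into 4 groups of 3 (one-sided), whose smallest p is 6.49e-05, with adjustment over the 8 ratios. All 8 had an adjusted p under 0.05. The ratio of Psmb8 to Psmb5, the constitutive subunit it replaces, was 3.05, 3.37 and 3.40 in classical monocytes, 1.12, 1.49 and 1.53 in early CMDMs, 2.07, 2.27 and 2.62 in late CMDMs and 2.95, 3.06 and 3.45 in resident-like macrophages (exact permutation test, adjusted p = 0.00121). The early CMDM libraries were lowest and the late CMDM libraries next, without overlap, whereas classical monocytes and resident-like macrophages overlapped. Psmb9 to Psmb6 was 0.465 to 0.493 in classical monocytes, 0.393 to 0.420 in resident-like macrophages, 0.310 to 0.395 in late CMDMs and 0.245 to 0.285 in early CMDMs (exact permutation test, adjusted p = 0.00104). Psmb10 to Psmb7 was 1.01 to 1.15 in classical monocytes, 0.636 to 0.870 in resident-like macrophages, 0.656 to 0.799 in late CMDMs and 0.366 to 0.502 in early CMDMs (exact permutation test, adjusted p = 0.00121). In each of these 3 ratios every early CMDM library was below the 9 others, and the highest and lowest fraction means differed 2.395-fold, 1.80-fold and 2.55-fold. Keratinocyte markers were highest in the same early CMDM libraries, and their part in these ratios was not tested.

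Within the transporter, Tap2 to Tap1 was 0.692 to 0.752 in classical monocytes and 0.659 to 0.693 in early CMDMs, below the 0.854 to 0.996 in late CMDMs and 0.847 to 0.875 in resident-like macrophages (exact permutation test, adjusted p = 0.0013). The ratio was thus higher in each Ly6Clo library than in each Ly6Chi library. Summed fibroblast markers divided the libraries in the same way, being higher in each Ly6Chi library, and their part in this ratio was not tested. Psmb9 to Tap1, the neighbours that start 225 bases apart, was 0.652, 0.673 and 0.770 in early CMDMs against 1.18 to 1.36 in late CMDMs and 1.17 to 1.22 in resident-like macrophages, and spread from 0.750 to 1.24 over the classical monocyte libraries (exact permutation test, adjusted p = 0.0129). H2-K1 to H2-D1 stayed between 0.782 and 0.903 in all libraries, and its fraction means differed only 1.11-fold (exact permutation test, adjusted p = 0.0129). H2-K1 to B2m was 0.339, 0.387 and 0.393 in late CMDMs and 0.449 to 0.681 in the other libraries (exact permutation test, adjusted p = 0.0305). H2-D1 to B2m was 0.411, 0.452 and 0.478 in late CMDMs and 0.524 to 0.822 in the others (exact permutation test, adjusted p = 0.0207). The late CMDM libraries were the lowest 3 for both heavy chains, but these differences did not pass when single libraries were left out: the adjusted p rose to 0.134 for H2-K1 to B2m and to 0.0825 for H2-D1 to B2m, both without late CMDM replicate 3. The call for H2-K1 to B2m was also lost without early CMDM replicate 1, late CMDM replicate 1 or 2 or resident-like replicate 3. That for H2-D1 to B2m was also lost without late CMDM replicate 1. Summed endothelial markers were highest in late CMDMs, and their part in the heavy chain to B2m ratios was not tested.

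**Figure D4:**
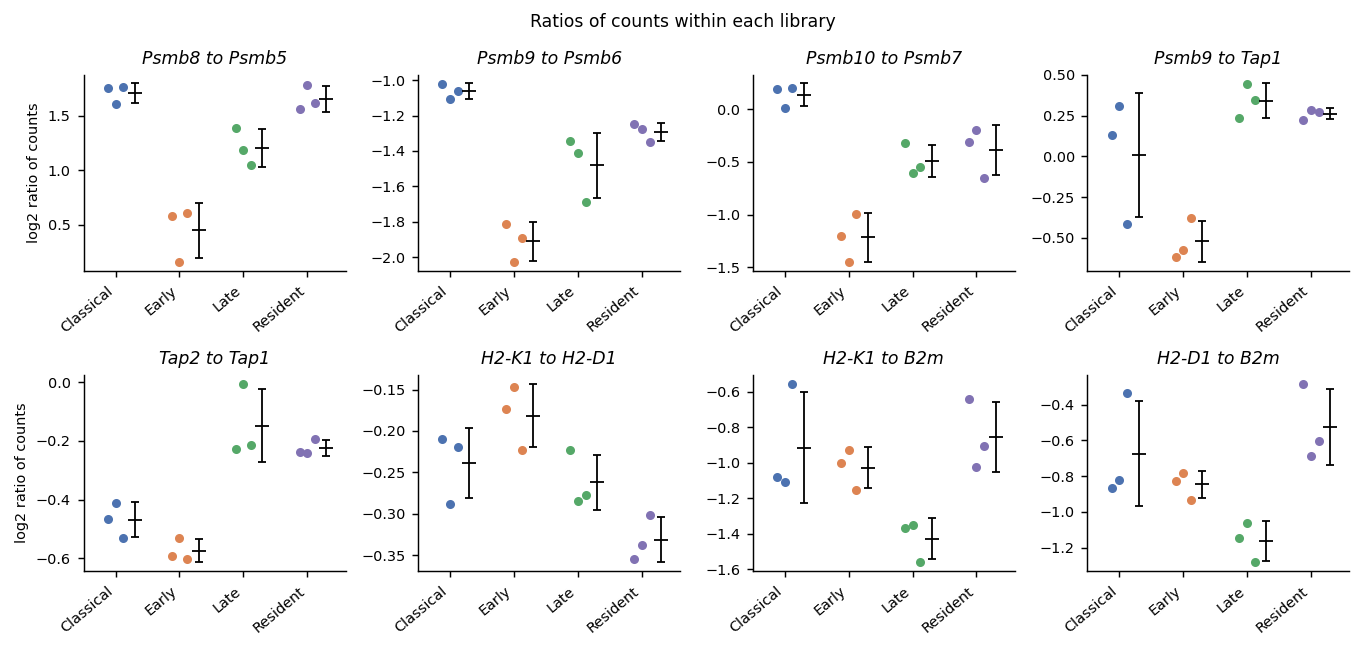
Log2 ratios of counts for 8 pairs of genes in each library, by fraction; points are the 3 libraries and bars are mean ± SD. Early CMDMs have the lowest immunoproteasome to constitutive ratios (log2 means 0.45, -1.91 and -1.22), and late CMDMs the lowest heavy chain to B2m ratios (-1.43 and -1.17).

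The constitutive subunits Psmb5, Psmb6 and Psmb7 were called in 1 of 18 tests on TMM scaling, with the largest log2 fold change being -0.31 ± 0.11 for Psmb5 between late and early CMDMs (adjusted p = 0.0385); on leukocyte-gene scaling all 3 passed in early CMDMs against classical monocytes, each with the higher level in early CMDMs. The proteasome activator genes Psme1 and Psme2 and the assembly factor Pomp were all called lower in early CMDMs than in classical monocytes on TMM scaling and all higher on leukocyte-gene scaling, with log2 fold changes of -0.72 ± 0.10, -0.57 ± 0.12 and -0.31 ± 0.12 on TMM scaling. Psme1 and Psme2 were also called lower in late CMDMs (-0.73 ± 0.10 and -0.40 ± 0.12) and in resident-like macrophages (-0.48 ± 0.10 and -0.50 ± 0.12) than in classical monocytes on TMM scaling, whereas on leukocyte-gene scaling 1 of the 3 was called higher in late CMDMs and none was called in resident-like macrophages. Of 6 genes for peptide loading and trimming in the endoplasmic reticulum, 3 were called lower and 0 higher in early CMDMs against classical monocytes on TMM scaling, and 6 higher on leukocyte-gene scaling. The largest of the 3 was Tapbpl, which encodes the tapasin-related peptide editor TAPBPR, at -0.79 ± 0.12. Uggt1, a glycoprotein folding sensor, followed at -0.73 ± 0.13. In early CMDMs against classical monocytes, 20.6% of all tested genes were called lower on TMM scaling and 90.9% higher on leukocyte-gene scaling. The counts called higher on leukocyte-gene scaling in that comparison, for these and the following lists, are near or below that share.

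Of 15 other heavy chain genes linked to the MHC, 11 were called lower and 1 higher in early CMDMs than in classical monocytes on TMM scaling (median log2 fold change -0.58), and all 15 higher on leukocyte-gene scaling. In that comparison 20.6% of all tested genes were called lower on TMM scaling and 90.9% higher on leukocyte-gene scaling. Between late and early CMDMs 10 of the 15 were called higher on TMM scaling and 11 lower on leukocyte-gene scaling. The shares of all tested genes there were 14.4% and 72.8%, so the 11 of 15 are near the share. H2-Q4 and H2-Q7 hold 10.1% and 7.30% of the 31-base words of H2-K1. Reads may be shared between these genes, which was not tested, so the 15 are not counted as independent. H2-M2 stood apart: it was at 171, 206 and 208 CPM in resident-like macrophages, against 17.7 to 23.98 CPM in classical monocytes and 24.4 to 34.2 CPM in both CMDM fractions. Its log2 fold change between resident-like macrophages and late CMDMs was 2.52 ± 0.12 on TMM scaling (adjusted p = 1.01e-09). The summed dendritic cell markers were highest in the same fraction, mostly through Cd207 and Cd209a. Flt3 (68.9 against 27.0 CPM) and Ccr7 (35.2 against 30.7 CPM) had higher means in classical monocytes than in resident-like macrophages. The part of these markers in the H2-M2 difference was not tested. Among class I-like partners of B2m outside the MHC, Fcgrt, which encodes the neonatal Fc receptor, was at 507, 539 and 700 CPM in late CMDMs and 179 to 357 CPM in the other libraries. Its log2 fold change between late CMDMs and classical monocytes was 1.60 ± 0.20 on TMM scaling (adjusted p = 1.63e-05). Hfe, a regulator of iron uptake, was also called higher there (1.30 ± 0.17), as was Mr1, which presents vitamin B metabolites (1.10 ± 0.16), whereas Cd1d1, which presents lipids, was called lower (-0.68 ± 0.23) on TMM scaling. With leukocyte-gene scaling 3 of these 4 were called higher and 0 lower. Among all tested genes 18.1% were called higher there on TMM scaling and 62.1% on leukocyte-gene scaling.

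Of 14 genes for interferon receptors and their signalling, 10 were called lower and 0 higher in early CMDMs than in classical monocytes on TMM scaling, with a median log2 fold change of -1.02, and 11 higher and 1 lower on leukocyte-gene scaling. Irf8, a factor of monocyte and dendritic cell development, was at -2.16 ± 0.19 on TMM scaling. Ifnar1, a chain of the type I interferon receptor, was at -1.75 ± 0.12 on that scale. Among all tested genes 20.6% were called lower in this comparison on TMM scaling and 90.9% higher on leukocyte-gene scaling. For late CMDMs against classical monocytes these shares were 17.5% and 62.1%. Between late CMDMs and classical monocytes 9 of the 14 were called lower and 1 higher on TMM scaling and 3 lower and 5 higher on leukocyte-gene scaling. The lowest was Ifngr1, the ligand-binding chain of the interferon-gamma receptor, at -1.83 ± 0.10, and the 1 called higher was Irf1, a target and effector of interferon-gamma, at 0.39 ± 0.12 on TMM scaling. Of 9 guanylate-binding protein, GTPase and chemokine genes induced by interferon-gamma, 7 were called lower in early CMDMs than in classical monocytes on TMM scaling and 6 higher on leukocyte-gene scaling. Gbp5 was at -1.70 ± 0.20 and Gbp3 at -1.43 ± 0.14 on TMM scaling. Of 5 interferon-inducible genes named by the study (Ifit1, Ifit2, Ifit3, Ifitm6 and Mx1), 2 were called lower and 0 higher in early CMDMs than in classical monocytes on TMM scaling, with a median log2 fold change of -0.95, and 1 lower and 1 higher on leukocyte-gene scaling. The 2 were Ifitm6 at -3.86 ± 0.45 and Mx1 at -1.51 ± 0.32. Late CMDMs against classical monocytes also gave 2 lower and 0 higher (median -0.70), whereas all 5 were called lower in resident-like macrophages than in classical monocytes under both scalings (median -2.17 on TMM scaling), among them Ifitm6 at -2.50 ± 0.41 and Ifit2 at -2.22 ± 0.60. For resident-like macrophages against classical monocytes, 12.9% of all tested genes were called lower on TMM scaling and 7.55% on leukocyte-gene scaling. The summed T and NK cell markers were highest in classical monocytes, and their part in the differences of this paragraph was not tested.

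Of the 7 RFX, NF-Y and CREB genes whose proteins act with NLRC5, 2 were called lower and 0 higher in early CMDMs than in classical monocytes on TMM scaling, Creb1 at -0.63 ± 0.09 and Rfxap at -0.42 ± 0.13, and all 7 higher on leukocyte-gene scaling. The shares of all tested genes for early CMDMs against classical monocytes were 20.6% lower on TMM scaling and 90.9% higher on leukocyte-gene scaling. Nfya was called higher in late CMDMs than in early CMDMs on TMM scaling (0.73 ± 0.10). Of 4 genes for cross-presentation, Wdfy4, which dendritic cells need to cross-present, was at -1.72 ± 0.20 and Rab43 at -1.09 ± 0.14 in early CMDMs against classical monocytes on TMM scaling, where Sec22b and Lnpep were not called; on leukocyte-gene scaling 3 of the 4 were called higher.

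Over the 12 libraries, the 10 genes did not follow one profile on TMM scaling. The Pearson correlation of log2 CPM with Psmb9 was 0.98 for Psmb8 and 0.95 for Psmb10, but 0.44 for Tap1. The correlation with Nlrc5 was 0.86 for Tapbp, 0.74 for Tap2, 0.42 for H2-K1, 0.34 for H2-D1 and 0.01 for B2m. B2m and Tap1 were correlated at -0.50. These values describe 12 libraries in 4 groups, share the scaling of each library and carry no test. Outside the 10 genes, those most like their mean scaled profile were Tmem229b (r = 0.99), Rftn1 (0.98), H2-T23 (0.98), Pqlc3 (0.98) and St8sia4 (0.98). H2-T23, which encodes the nonclassical class I molecule Qa-1, was at 232 ± 21.6, 135 ± 8.75, 179 ± 8.22 and 201 ± 12.4 CPM in classical, early, late and resident-like cells. Those most like Nlrc5 were Hs3st1 (0.95), Rab33b (0.95), Zfp212 (0.94), Ogt (0.93) and Usp11 (0.93).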

How the data were processed

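mRNA captured with oligo(dT) was sequenced for 12 libraries. The deposited table gives raw counts, 1 row per gene symbol. The authors trimmed reads with cutadapt 4.1 and mapped them to reference RNA (GRCm38, Ensembl) with Bowtie2 2.4.5, and the reads of each gene were counted. Their comparisons used TCC, which was not run here. The 12 count columns were matched to samples by their labels.

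Tests used edgeR 4.0.16 (R 4.3.3): TMM factors, the filterByExpr filter and a robust quasi-likelihood model of all 12 libraries. 22118 of 37775 genes were tested in 6 comparisons, with Benjamini-Hochberg adjustment over all tested genes and a threshold of 0.05. Both scripts were tested on simulated data. Each SE is the log2 fold change divided by the root of its F statistic, and CPM uses TMM library sizes. The biological coefficient of variation was 13.2%. Totals of 12537178 to 19844113 counts put 3 counts at 0.151 to 0.239 CPM. Chi-square values between replicates were 4.24 to 21.9 times their degrees of freedom, which leaves no duplicated library. The members, lists, ratios and tests were chosen with earlier results of these data known. All 10 members were named in every comparison; of each other list, up to 2 called genes per direction with the largest fold change, or any gene of a list of 4 or fewer. The 5 genes most like the mean member profile and the 5 most like Nlrc5 were named by Pearson r. Alternatives were DESeq2 1.42.0, RLE, upper quartile, library size only, DEGES (3 rounds, the strategy of TCC), scaling by 10 leukocyte genes, no filter, 10 counts in every library, no genes over 1% of counts, a replicate block, fits to the 6 libraries compared, adjusted p under 0.1 or 0.01, a minimum log2 fold change of 1 and leaving out each library.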

Additional observations from a re-analysis of the deposited data

How the results depend on the processing

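Scaling by the 10 leukocyte genes changed the sign of 44 of 60 log2 fold changes of the 10 genes. For early CMDMs against classical monocytes these were H2-K1 1.25, H2-D1 1.18, B2m 1.34, Tap1 1.32, Tap2 1.22, Tapbp 1.10, Psmb8 0.60, Psmb9 0.79, Psmb10 0.55 and Nlrc5 1.37. For late against early CMDMs these were H2-K1 -0.51, H2-D1 -0.42, B2m -0.10, Tap2 -0.94, Tapbp -0.72, Psmb8 -0.52, Psmb9 -0.49, Psmb10 -0.34 and Nlrc5 -0.89. For late CMDMs against classical monocytes these were H2-K1 0.74, H2-D1 0.76, Tap2 0.28, Tapbp 0.37, Psmb8 0.0783, Psmb9 0.30, Psmb10 0.22 and Nlrc5 0.47. For resident-like macrophages against late CMDMs these were H2-K1 -0.49, H2-D1 -0.42, Tap1 -0.23, Tap2 -0.30, Psmb8 -0.12, Psmb9 -0.31 and Psmb10 -0.47. For resident-like macrophages against early CMDMs these were H2-K1 -1.002, H2-D1 -0.85, B2m -1.16, Tap1 -1.59, Tap2 -1.25, Tapbp -1.51, Psmb8 -0.63, Psmb9 -0.79, Psmb10 -0.81 and Nlrc5 -1.55. The counts called higher and lower became 10 and 0 (early against classical), 0 and 8 (late against early) and 5 and 0 (late against classical). In the same order, the shares of all tested genes were 90.9 and 2.08%, 0.692 and 72.8%, and 62.1 and 5.10%. For resident-like macrophages the counts became 0 and 6 (against late), 0 and 0 (against classical) and 0 and 10 (against early). Their shares were 2.70 and 53.8%, 9.38 and 7.55%, and 1.36 and 89.8%. With DEGES, values not called in either fit changed sign for Tap2 (-0.0007) in late against early CMDMs, H2-D1 (0.022) in late CMDMs against classical monocytes, Tap1 (-0.0697) in resident-like macrophages against early CMDMs, Tapbp (-0.0001) in resident-like macrophages against early CMDMs and Nlrc5 (-0.029) in resident-like macrophages against early CMDMs. With upper quartile scaling, values not called in either fit changed sign for H2-D1 (0.0033) in late CMDMs against classical monocytes and Nlrc5 (0.0188) in resident-like macrophages against late CMDMs. With library size only, values not called in either fit changed sign for H2-K1 (-0.0571) in resident-like macrophages against classical monocytes, B2m (-0.12) in resident-like macrophages against classical monocytes, Tap1 (-0.12) in resident-like macrophages against early CMDMs, Tapbp (-0.0531) in resident-like macrophages against early CMDMs and Nlrc5 (-0.0826) in resident-like macrophages against early CMDMs. Leaving out 1 library changed the sign of some values that were not called, with ranges of -0.0257 to 0.11 for Tap2 in late against early CMDMs, -0.0908 to 0.0252 for H2-K1 in late CMDMs against classical monocytes, -0.0446 to 0.0379 for H2-D1 in late CMDMs against classical monocytes, -0.0603 to 0.0537 for Nlrc5 in resident-like macrophages against late CMDMs, -0.0533 to 0.14 for B2m in resident-like macrophages against classical monocytes and -0.0078 to 0.0931 for Tap1 in resident-like macrophages against early CMDMs.

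For late against early CMDMs, 1 gene (Tap1) was called lower with library size only, DEGES, no filter, 10 counts in every library, the 6 libraries alone and an adjusted p under 0.1, against 0. For resident-like macrophages against late CMDMs, 1 gene was called higher with library size only and at 0.01, and 0 lower at 0.01. For resident-like macrophages against classical monocytes, 2 genes were called lower with upper quartile, without genes over 1% of counts and with the 6 libraries alone, and 1 at 0.01. For late CMDMs against classical monocytes, 0 genes were called higher at 0.01. At a log2 fold change of at least 1, only 2 calls remained, both lower in early CMDMs than in classical monocytes, and 0 in each other comparison. Leaving out 1 library gave 0 to 1 gene lower in late against early CMDMs, 1 to 4 higher and 0 to 1 lower in resident-like against late, and 1 to 4 lower in resident-like against classical. With DESeq2 and RLE no count moved by over 1.5 times. In resident-like macrophages against late CMDMs, the Tap1 call was lost with library size only and DEGES and the Psmb9 call with library size only, and Tap2 was called with upper quartile, no filter and the 6 libraries alone. Against classical monocytes, the Tap1 and Nlrc5 calls were lost with upper quartile, without genes over 1% of counts and with the 6 libraries alone, that for Nlrc5 also with no filter, and Psmb8 and Psmb9 were called lower with library size only.

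Whether replicate numbers mark pairs was not settled. After removal of fraction means, same-numbered libraries of different fractions correlated at -0.099 to 0.248 (median 0.059, 4 of 18 pairs over 0.1). Other pairs correlated at -0.215 to 0.171 (median -0.031), and 10 of 12 libraries were nearest to their own number. The main tests used no block, so they ignore any such pairing. With a replicate block, 1 gene was called lower in late against early CMDMs (Tap1), against 0, and Tapbp was called higher (adjusted p = 0.04), as with upper quartile scaling and the 6 libraries alone. With the block, H2-K1 to B2m (range of fraction means 0.57 on the log2 scale, exact permutation test, adjusted p = 0.0764) and H2-D1 to B2m (0.64, adjusted p = 0.0536) missed the threshold, as did H2-K1 to B2m with a rank statistic (0.57, exact permutation test, adjusted p = 0.0502). The other 6 ratios passed under the block, the rank statistic and each library left out. Leaving out 1 library gave ranges of 0.50 to 0.66 for H2-K1 to B2m and 0.52 to 0.72 for H2-D1 to B2m. The cause of these changes was not tested. With 3 libraries per fraction, log2 differences of Nlrc5, Tap1 and Tap2 near their SE of 0.11 to 0.15 could not be resolved.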
